A study of Homo sapiens with 6 samples.

Results

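The library siRIPK2_3 was set against the other 5 libraries of an RNA sequencing series on U118, an established human glioma cell line that the labels describe as astroblastoma cells. It is 1 library of 6, from cells harvested on day 2 after transfection with small interfering RNA (siRNA) against RIPK2. The others were siRIPK2_1, siRIPK2_2 and siRIPK2_4, also given siRNA against RIPK2, siNC, given a control siRNA, and WT, wild-type cells of the same line. All 6 were grown in DMEM with fetal bovine serum and antibiotics, and nothing in the labels says whether siRIPK2_1 to siRIPK2_4 stand for 4 siRNA sequences or for 4 cultures given 1 siRNA. With 1 library there is no replicate behind any value of siRIPK2_3, so values are given without a test.

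RIPK2 is a serine/threonine kinase that relays signals from the intracellular peptidoglycan sensors NOD1 and NOD2 to NF-kB and MAP kinases. An siRNA guides the RNA-induced silencing complex to a complementary messenger RNA, which is then cut. Levels are in CPM, read counts scaled to a common library total. Of 20263 gene IDs, 10674 had a mean of 5 CPM or more and were compared. The gap of a gene is the distance on the log2(CPM + 0.5) scale from siRIPK2_3 to the nearest of the other 5 libraries, negative below their range, positive above it and 0 inside it. A gap of 2-fold or more is at least 1 on that scale.

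The 6 libraries held 33540619 to 45309423 counts, with siRIPK2_3 the deepest, and mitochondrial transcripts took 4.12% of the counts of siRIPK2_3, against 4.10 to 4.71% in the others. The median difference of siRIPK2_3 from the median of the others over all genes was 0.02 on the log2 scale. Of 18 astrocyte and glioma markers, 8 reached 5 CPM. VIM, the intermediate filament vimentin, stood at 5969 CPM in siRIPK2_3, against 3813 to 7572 CPM in the others. GFAP, the defining astrocyte filament, was at 0.53 CPM, against 0.69 to 1.09 CPM, and AQP4 was at 0 counts in all 6 libraries. Of 15 macrophage and microglia markers 1 reached 5 CPM and 5 were at 0 in every library, and their summed level was 145 CPM in siRIPK2_3, against 99.0 to 168 CPM. Most of that sum was CD68, at 140.9 CPM in siRIPK2_3. Epithelial markers had 0 of 10 and endothelial markers 1 of 10 at 5 CPM. Neuron and oligodendrocyte markers had 4 of 13 at 5 CPM, with a summed level of 137 CPM in siRIPK2_3, against 133 to 163 CPM.

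The knockdown target itself did not set siRIPK2_3 apart. RIPK2 stood at 6.27 CPM in siRIPK2_3 (95% exact Poisson interval 5.56 to 7.04, which covers counting error only). It stood at 3.86 CPM in siRIPK2_1, 11.9 CPM in siRIPK2_2 and 4.32 CPM in siRIPK2_4, against 43.4 CPM in siNC and 56.8 CPM in WT. All 4 knockdown libraries were below both controls, and siRIPK2_3 lay between the other 3.

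Outside that gene, siRIPK2_3 was lower than all 5 others in 1860 genes, 17.4% of those compared, and higher than all 5 in 2390 genes, 22.4%. At a gap of 2-fold or more the balance ran the other way, with 95 genes lower (0.89%) and 15 higher (0.141%). At 3-fold there were 15 lower and 2 higher genes, and at 8-fold 2 lower and 1 higher. Leaving siNC out of the range brought the number of genes higher by 2-fold to 29. Every library stands outside the range of its own other 5 in some genes. The count at 2-fold was 110 in both directions for siRIPK2_3, 159 for siRIPK2_1, 69 for siRIPK2_2, 116 for siRIPK2_4, 78 for siNC and 10 for WT, so siRIPK2_3 was not the library with the most such genes. More genes were lower than higher at 2-fold in every library. In their own comparisons siRIPK2_1 had 129 lower and 30 higher, siRIPK2_2 53 and 16, and siRIPK2_4 104 and 12. For siNC the numbers were 69 and 9, and for WT 6 and 4. In bulk RNA, fewer cells of a kind and less RNA per cell cannot be told apart.

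In 75 of the 95 genes low by 2-fold (78.9%) the other 5 libraries lay within 2-fold of each other, against 7762 of all 10674 genes (72.7%). The 95 lay on 23 chromosomes. The values just inside the 2-fold limit were -1.004 for CCDC93 and -1.002 for MBD5, and TRIQK at -0.9989 lay just outside it. On the high side AMOTL2 at 1.01 was the last gene inside, and TENT5B at 0.998 the first outside.

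The widest gap belonged to IMP3, a protein of the U3 small nucleolar ribonucleoprotein that acts in the first cleavages of the ribosomal RNA precursor. IMP3 stood at 3.06 CPM in siRIPK2_3 (interval 2.57 to 3.61). It stood at 79.4 CPM in siRIPK2_1, 95.03 CPM in siRIPK2_2, 128 CPM in siRIPK2_4, 138 CPM in siNC and 91.3 CPM in WT. The gap was -4.49, or 22.5-fold on that scale. IMP3 lies on chromosome 15 (GENCODE 29 on GRCh38) and its exons overlap those of SNX33, a sorting nexin gene, which was inside the range at 106 CPM, against 103 to 139 CPM.

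FSCN1 encodes fascin, which packs actin filaments into the parallel bundles of filopodia. FSCN1 stood at 75.1 CPM in siRIPK2_3 (interval 72.6 to 77.7). It stood at 827 CPM in siRIPK2_1, 689.7 CPM in siRIPK2_2, 804 CPM in siRIPK2_4, 761 CPM in siNC and 665 CPM in WT. The other 5 averaged 749 ± 70.4 CPM (SD, n = 5), and the gap was -3.14, or 8.80-fold. Other actin bundling and crosslinking genes lay closer to the range. Of 27 measured, 5 were below the range (18.5%) and 3 above (11.1%), against 17.4% and 22.4% of all genes. The next widest gap below was that of LCP1, another bundling protein, at -0.14.

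IFNAR1, a chain of the receptor for type I interferons, stood at 6.33 CPM in siRIPK2_3 (interval 5.62 to 7.11). It stood at 58.2 CPM in siRIPK2_1, 41.9 CPM in siRIPK2_2, 47.4 CPM in siRIPK2_4, 54.3 CPM in siNC and 47.7 CPM in WT. The gap was -2.63, or 6.199-fold, with no overlap between siRIPK2_3 and the other 5. Of 24 interferon receptor and JAK-STAT genes, 8 were below the range (33.3%) and 4 above (16.7%), against 17.4% and 22.4% of all genes. IFNGR2, a chain of the interferon gamma receptor, was at 16.9 CPM, against 29.2 to 48.7 CPM in the others.

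Of 38 interferon-stimulated genes, 13 were below the range (34.2%) and 8 above (21.1%), against 17.4% and 22.4% of all genes, with a median difference of -0.21 from the others' median. The library siRIPK2_1 had 11 of the 38 below and 6 above in its own comparison, with a median difference of -0.18. TRIM21, a cytosolic antibody receptor, was at 20.2 CPM in siRIPK2_3, against 35.7 to 43.6 CPM. IFIT1, a sensor of foreign RNA ends, was at 4.03 CPM, against 5.40 to 8.55 CPM. IRF7, an interferon regulatory factor, lay above the range by a gap of 0.19. Where only genes with a mean of 20 CPM or more were kept, which leaves fewer members, 6 of them were below the range.

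RBMS3, an RNA-binding protein, was lower than in all 5 by a narrow gap. It stood at 20.2 CPM in siRIPK2_3, 42.7 CPM in siRIPK2_1, 43.7 CPM in siRIPK2_2, 40.1 CPM in siRIPK2_4, 21.7 CPM in siNC and 36.6 CPM in WT. The low value was shared with siNC, and the gap of -0.10 became -0.84 without siNC. BECN1, beclin 1 of the autophagy-initiating lipid kinase complex, was higher. It stood at 63.1 CPM in siRIPK2_3, 46.6 CPM in siRIPK2_1, 47.2 CPM in siRIPK2_2, 44.7 CPM in siRIPK2_4, 35.3 CPM in siNC and 45.0 CPM in WT, a gap of 0.42. The exons of BECN1 overlap those of PSME3, which was inside the range at 154 CPM, against 49.4 to 171 CPM. Their sum was 217.4 CPM in both siRIPK2_3 and siRIPK2_1, and 94.9 to 198 CPM in the remaining libraries. By library, PSME3 was at 171 CPM in siRIPK2_1, 153 CPM in siRIPK2_4 and 158 CPM in siNC. It was at 49.4 CPM in siRIPK2_2 and 50.0 CPM in WT. Whether shared reads were split differently between BECN1 and PSME3 was not tested. The 37 genes of autophagy initiation had 6 members below and 6 above the range, or 16.2% each way. Of all genes, 17.4% were below and 22.4% above.

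**Figure D1:**
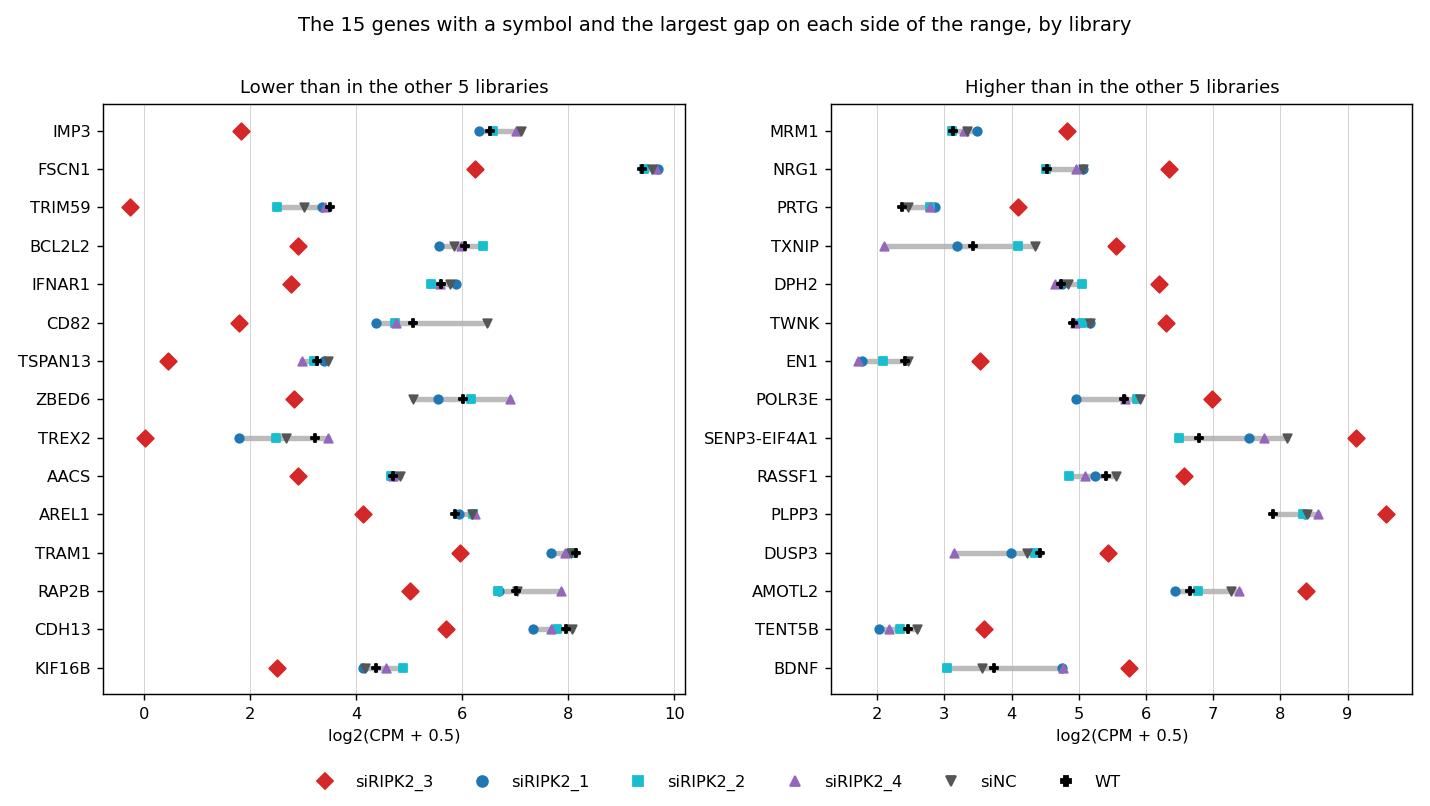
Each row is a gene, the horizontal axis is its level as log2(CPM + 0.5), and the grey bar spans the 5 libraries other than siRIPK2_3 (red diamonds). Only genes with a symbol are drawn, which leaves out 2 IDs with wider gaps above. The 15 lowest run from IMP3, with a gap of -4.49, to KIF16B, at -1.62, and the 15 on the high side from MRM1, at 1.34, to BDNF, at 0.98.

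Some of the other genes with wide gaps below encode membrane proteins. The share of membrane protein genes among all those compared was not counted, and no theme is drawn from these genes. CD82 and TSPAN13 are tetraspanins, proteins that organise receptors and adhesion molecules in the plasma membrane. CD82 was at 2.95 CPM in siRIPK2_3, against 20.2, 26.2 and 26.4 CPM in siRIPK2_1, siRIPK2_2 and siRIPK2_4, 87.7 CPM in siNC and 33.3 CPM in WT. TSPAN13 was at 0.86 CPM, against 7.34 to 10.5 CPM in the others. CDH13, the lipid-anchored T-cadherin, was at 51.6 CPM, against 161 to 267 CPM. Its list of cadherin and axon guidance genes had 12 of 35 members below the range (34.3%) and 2 above (5.71%). The shares over all genes were 17.4% and 22.4%. For this list siRIPK2_1 had 0 below and 14 above in its own comparison. CDH2, N-cadherin, was at 139.6 CPM in siRIPK2_3, against 199.8 to 352 CPM. UNC5B, a netrin receptor, was at 56.4 CPM, against 85.9 to 199 CPM.

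TRIM59, a membrane-bound protein of the tripartite motif family, stood at 0.33 CPM from 15 counts in siRIPK2_3 (interval 0.19 to 0.55), against 5.22 to 10.8 CPM. Its exons overlap those of SMC4, which was inside the range. AREL1, a ubiquitin ligase that restrains apoptosis, was at 16.9 CPM, against 57.7 to 74.7 CPM. AACS, which activates acetoacetate for lipid synthesis, was at 6.999 CPM, against 24.7 to 27.8 CPM, the steadiest of the 15 in the other 5 libraries with a range of 0.17. TRAM1, a component of the channel that takes nascent chains into the endoplasmic reticulum (ER), was at 61.6 CPM, against 202 to 281 CPM. RAP2B, a small GTPase, was at 31.9 CPM, against 102 to 231 CPM. KIF16B, a kinesin that carries early endosomes, was at 5.20 CPM, against 16.98 to 29.1 CPM.

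Several genes with wide gaps share exons with a neighbour that lay on the other side of the range. ZBED6, a transcription factor encoded inside ZC3H11A, was at 6.64 CPM in siRIPK2_3, against 33.1 to 118.1 CPM, while ZC3H11A was at 107 CPM, against 17.7 to 69.4 CPM. The sum of the 2 was 113 CPM, inside the range of 92.3 to 136 CPM of the others. TREX2, a DNA exonuclease, was at 0.51 CPM, against 2.95 to 10.6 CPM, and its overlapping gene HAUS7 at 19.98 CPM, against 6.56 to 10.6 CPM. Their sum, 20.5 CPM, was above the 11.7 to 18.6 CPM of the others, so the low TREX2 value cannot be told apart from a different split of shared reads. Without siRIPK2_1 the gap of TREX2 was -2.48 in place of -1.77.

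BCL2L2, which encodes the apoptosis inhibitor BCL-W, was at 7.02 CPM in siRIPK2_3, against 46.5 to 83.6 CPM. The read-through gene BCL2L2-PABPN1 was above the range by 1.20, but the sum of both, 19.3 CPM, stayed below the 50.0 to 85.1 CPM of the others. SENP3-EIF4A1, a read-through gene that shares exons with both its parents, stood at 558 CPM, against 89.3 to 274 CPM. EIF4A1 was inside the range and SENP3 below it by 0.09. The counting could split reads among these genes, and their single values are uncertain.

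Some of the other genes low by 2-fold are given here by role. They were picked from the 95 after their values were seen, the number of genes with each role among all those compared was not counted, and no theme is drawn from them. In vesicle and motor traffic 8 genes had gaps of -1.62 to -1.004, among them SNX9, a sorting nexin of endocytosis, DNM2, the membrane-cutting GTPase dynamin 2, and the kinesin genes KIF13B and KIFAP3. In lipid metabolism 6 had gaps of -1.75 to -1.04. They included IDI1, an isomerase of the mevalonate pathway, SCD, which makes monounsaturated fatty acids, and NPC2, a cholesterol carrier of the lysosome. Among mitochondrial proteins, 5 had gaps of -1.33 to -1.005, with TFAM, which packages mitochondrial DNA, and TK2, a mitochondrial nucleoside kinase. Of messenger RNA silencing and decay, 4 had gaps of -1.41 to -1.11, with TNRC6B, a scaffold of Argonaute complexes, and the decapping enzyme DCP2. The list of small RNA pathway genes, which holds TNRC6B, had 4 of 19 below the range (21.1%) and 3 above (15.8%). Of all genes, 17.4% were below and 22.4% above. TNRC6A, a related scaffold, lay above the range by 0.35. Of the 95, 16 sat in one of the 45 lists of known function (16.8%), against 11.6% of all genes compared. The lists were chosen with earlier results of these data known, and they hold FSCN1, IMP3 and IFNAR1. The difference between the shares is therefore not read as a result.

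Lipid synthesis was also described as a list. SCD was at 57.8 CPM in siRIPK2_3, against 220.4 CPM in siRIPK2_1, 172 CPM in siRIPK2_2, 137 CPM in siRIPK2_4, 214 CPM in siNC and 233 CPM in WT. IDI1 was at 8.88 CPM, against 23.4 to 30.8 CPM, and HMGCS1, an earlier enzyme of the same pathway, at 36.4 CPM, against 50.4 to 68.7 CPM. Of 30 sterol and fatty acid synthesis genes, 10 were below the range (33.3%) and 1 above (3.33%), against 17.4% and 22.4% of all genes. The median difference was -0.27. Low values of these genes were also seen in other libraries, with 7 below in siRIPK2_2 and 8 in siRIPK2_4 in their own comparisons.

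Among the 45 lists, leaving aside subsets taken from them and lists added later, the largest share below the range was that of the integrated stress and unfolded protein response, with 20 of 40 genes below (50.0%) and 7 above (17.5%), and a median difference of -0.48. The shares over all genes were 17.4% below and 22.4% above. The list was also low in siRIPK2_1, with 12 of 40 below and 0 above in its own comparison, and a median difference of -0.39. The unfolded protein response raises the folding capacity of the ER through the sensors IRE1, PERK and ATF6. Its genes lay on both sides of the range. Of 17 ER chaperone and folding genes, a subset taken from the list after its values were seen, 16 were below the range and 0 above, with a median difference of -1.05. CANX, the membrane chaperone calnexin, was the exception, at 721 CPM, against 672 to 813 CPM.

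HSPA5 encodes BiP, the main ER chaperone. It stood at 2852 CPM in siRIPK2_3, 4810.0 CPM in siRIPK2_1, 7223 CPM in siRIPK2_2, 8509 CPM in siRIPK2_4, 6392 CPM in siNC and 7745 CPM in WT. The library siRIPK2_1 was the next lowest, and the gap to it was -0.75. HSP90B1, the ER form of HSP90, was at 1129.9 CPM, against 1959 to 2761 CPM. HERPUD1, of the pathway that returns misfolded proteins to the cytosol, was at 68.9 CPM, against 101 to 221 CPM. EDEM1, which marks glycoproteins for the same pathway, was at 52.0 CPM, against 61.2 CPM in siRIPK2_4 and 94.1 to 167 CPM in the other 4 libraries. The disulfide isomerase gene PDIA4 was at 231 CPM, against 333 to 611 CPM, and HYOU1, a large ER chaperone, at 423 CPM, against 692 to 1251 CPM.

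The chaperones had the lowest summed level in siRIPK2_3, 8565 CPM, with 13560 CPM in siRIPK2_1, 17360 CPM in siRIPK2_2, 19410 CPM in siRIPK2_4, 15710 CPM in siNC and 19070 CPM in WT. In their own comparisons siRIPK2_1 had 0, siRIPK2_2 1, siRIPK2_4 0, siNC 0 and WT 0 of the 17 below the range. A gene can be lowest in 1 library only, so with 16 of them lowest in siRIPK2_3 these counts were bound to be low. The median difference of the chaperones was next lowest in siRIPK2_1, at -0.40. The sensor genes had smaller gaps. EIF2AK3, which encodes PERK, was at 24.1 CPM, against 29.5 to 40.1 CPM, ATF6 was below by a gap of 0.07, and ERN1, which encodes IRE1, and XBP1, its target, were inside the range. DDIT3, the transcription factor CHOP, was at 47.2 CPM, against 47.9 CPM in siRIPK2_1 and 67.0 to 99.4 CPM in the other 4.

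Genes that answer to amino acid shortage through ATF4 did not follow the chaperones. Of 19 such genes, also taken from the list after its values were seen, 2 were below the range and 7 above, with a median difference of 0.18. ATF4 itself was at 862 CPM in siRIPK2_3, against 491 to 699 CPM. SLC3A2, the heavy chain of amino acid exchangers, was at 660.2 CPM, against 375 to 568 CPM, and MTHFD2, a mitochondrial folate enzyme, at 39.1 CPM, against 19.5 to 32.4 CPM. ASNS, CHAC1 and DDIT4 were inside the range.

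**Figure D2:**
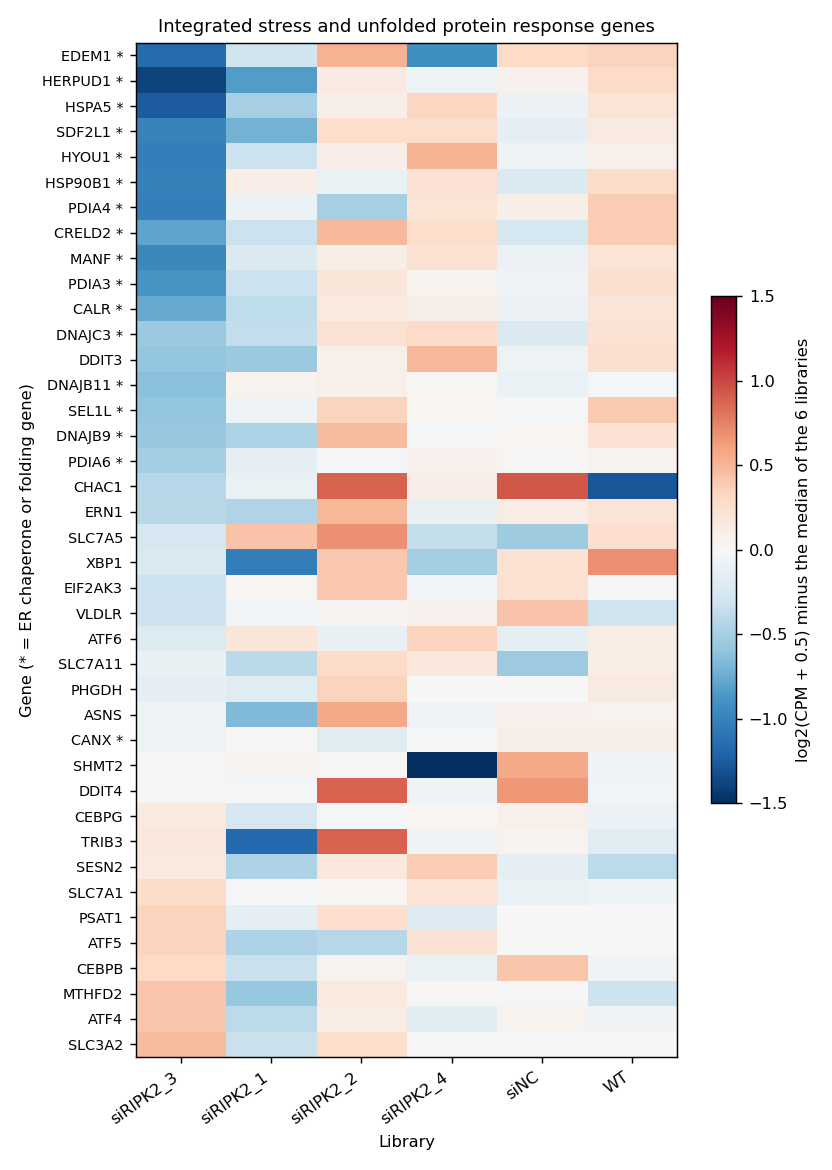
Rows are the 40 measured genes of the integrated stress and unfolded protein response, columns are libraries, and colour is log2(CPM + 0.5) minus the median of the 6 libraries. The starred ER chaperone genes are blue in the siRIPK2_3 column except CANX, which is near the median, and ATF4 and SLC3A2 at the bottom are red there.

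The promoters of some of these genes carry the ER stress response element, bound by NF-Y and ATF6. Its letters, CCAAT, then 9 bases of any kind, then CCACG, were searched on both strands in the 250 bases before each RefSeq start on GRCh38.p14, and no other motif was searched. The element was found for 25 of 27305 symbols with a promoter in the table (0.0916%). Among genes at 5 CPM or more it was found for 15 of 8783 symbols (0.171%). The integrated stress and unfolded protein response list had it for 7 of 37 symbols (18.9%). Every other of the 45 lists with promoters in the table had it for 0 symbols. The 5 promoters below belong to chaperone genes that were below the range and carry the element, and XBP1 carries it but was inside the range. CANX, the chaperone gene inside the range, carries the element too, and its promoters are not printed. Capitals mark the element, each sequence runs 5′ to 3′ on the strand of its gene, and where the element is on the opposite strand its reverse complement is in capitals.
HSPA5: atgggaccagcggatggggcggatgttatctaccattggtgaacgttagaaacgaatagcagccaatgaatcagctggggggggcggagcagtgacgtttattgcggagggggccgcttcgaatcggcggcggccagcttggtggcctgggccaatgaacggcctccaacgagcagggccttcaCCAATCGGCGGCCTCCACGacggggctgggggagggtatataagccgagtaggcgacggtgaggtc
HSP90B1: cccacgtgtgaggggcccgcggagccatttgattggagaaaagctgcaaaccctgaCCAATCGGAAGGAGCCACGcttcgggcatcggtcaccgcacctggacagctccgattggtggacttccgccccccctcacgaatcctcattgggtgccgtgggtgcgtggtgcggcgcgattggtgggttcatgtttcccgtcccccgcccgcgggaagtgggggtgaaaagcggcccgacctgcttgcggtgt
CALR: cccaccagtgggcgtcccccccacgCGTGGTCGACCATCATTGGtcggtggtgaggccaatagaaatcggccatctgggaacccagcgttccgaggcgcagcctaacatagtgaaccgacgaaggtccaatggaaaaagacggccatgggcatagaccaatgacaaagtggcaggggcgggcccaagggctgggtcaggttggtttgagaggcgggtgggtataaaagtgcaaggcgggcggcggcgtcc
CRELD2: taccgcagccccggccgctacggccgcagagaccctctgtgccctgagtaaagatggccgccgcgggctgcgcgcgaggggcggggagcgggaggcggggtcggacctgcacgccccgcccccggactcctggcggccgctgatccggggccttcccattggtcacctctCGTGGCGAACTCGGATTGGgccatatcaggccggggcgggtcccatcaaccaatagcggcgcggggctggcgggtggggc
PDIA6: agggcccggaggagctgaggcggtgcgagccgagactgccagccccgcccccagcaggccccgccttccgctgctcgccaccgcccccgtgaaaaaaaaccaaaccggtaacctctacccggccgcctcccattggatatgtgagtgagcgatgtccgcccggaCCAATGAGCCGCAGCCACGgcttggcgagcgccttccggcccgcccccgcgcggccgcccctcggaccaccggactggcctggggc
XBP1: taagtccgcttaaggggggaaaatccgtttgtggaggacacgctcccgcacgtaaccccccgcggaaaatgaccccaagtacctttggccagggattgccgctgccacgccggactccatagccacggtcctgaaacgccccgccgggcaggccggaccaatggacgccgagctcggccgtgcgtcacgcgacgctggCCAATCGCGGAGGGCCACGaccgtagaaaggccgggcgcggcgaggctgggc

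HSPA5 is at chr9:125241344-125241593 on the minus strand, HSP90B1 at chr12:103930160-103930409 on the plus strand and CALR at chr19:12938359-12938608 on the plus strand. CRELD2 is at chr22:49918384-49918633 on the plus strand, PDIA6 at chr2:10812786-10813035 on the minus strand and XBP1 at chr22:28800570-28800819 on the minus strand. In HSPA5 the element ends 48 bases before the start and in HSP90B1 176 bases before it. CALR, an ER lectin chaperone, and CRELD2, a secreted protein induced by ER stress, hold it on the opposite strand. CALR was at 1344 CPM in siRIPK2_3, against 1742 to 2593 CPM, CRELD2 at 69.1 CPM, against 95.7 to 168 CPM, and PDIA6 at 525 CPM, against 681 to 785 CPM. XBP1 was at 102 CPM, against 58.1 CPM in siRIPK2_1, 84.5 CPM in siRIPK2_4 and 141 to 194 CPM in the other 3. Of the 15 symbols with the element and at 5 CPM or more, 6 were below the range, 1 above and 8 inside, a mixed order. Of all genes, 17.4% were below and 22.4% above. The 6 include the low chaperone genes printed above, from a subset taken after values were seen, so this is no separate observation. A match of letters is a description and not a bound site.

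On the other side, those of the 45 lists with the largest shares above the range were lists of the ribosome and its assembly. Ribosomal proteins are made in step with ribosomal RNA, which RNA polymerase I transcribes and the small subunit processome and later factors cut and fold. Of 54 cytosolic ribosomal protein genes, 49 were above the range (90.7%) and 1 below, against 22.4% and 17.4% of all genes. The median difference was 0.55, and no member had a gap of 2-fold.

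RPS12, of the small subunit, had the widest gap of them at 0.59. It stood at 637 CPM in siRIPK2_3, 183 CPM in siRIPK2_1, 332 CPM in siRIPK2_2, 422 CPM in siRIPK2_4, 407 CPM in siNC and 359 CPM in WT. RPS18 stood at 1098 CPM, against 627 to 795 CPM. RPSA, the laminin-binding ribosomal protein, was the member below, at 779 CPM, against 925 to 1186 CPM, and RPL3, RPL22, RPS23 and RPS25 were inside. The summed level of the list was 37820 CPM in siRIPK2_3, 23950 CPM in siRIPK2_1, 24680 CPM in siRIPK2_2, 31600 CPM in siRIPK2_4, 30980 CPM in siNC and 26270 CPM in WT. In their own comparisons, 0 members were above in siRIPK2_1, siRIPK2_2 and WT, 2 in siRIPK2_4 and 3 in siNC. A gene can be highest in 1 library only, so with 49 members highest in siRIPK2_3 these counts were bound to be low. Median differences were -0.36 in siRIPK2_1, -0.29 in siRIPK2_2, 0.26 in siRIPK2_4, 0.23 in siNC and -0.21 in WT.

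Assembly factors were ordered in the same direction by smaller amounts. Of 33 genes of the U3 ribonucleoprotein and small subunit processome, 21 were above (63.6%) and 2 below, with a median difference of 0.39. IMP3 was one of the 2 and UTP18, at 46.7 CPM against 57.5 to 81.8 CPM, was the other. NOL6, a processome scaffold, was at 189 CPM in siRIPK2_3, against 90.4 to 135 CPM, and UTP15 at 34.1 CPM, against 16.1 to 24.8 CPM. Of 30 genes of RNA polymerase I and large subunit assembly, 19 were above (63.3%) and 2 below. NLE1, a large subunit assembly factor, was at 70.0 CPM, against 29.3 to 44.5 CPM, and RRN3, which brings RNA polymerase I to its promoter, was lower at 40.2 CPM, against 52.4 to 72.3 CPM.

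Lists added after values were seen covered translation and RNA polymerase III. Of 33 translation factors, 20 were above (60.6%) and 1 below. EIF4A2, an RNA helicase of initiation, was at 279 CPM in siRIPK2_3, against 166 to 197 CPM, and EEF1D, an exchange factor of elongation, at 270.1 CPM, against 137 to 206 CPM. Of 27 genes of RNA polymerase III and its factors, 11 were above (40.7%) and 3 below. POLR3E, a subunit of that enzyme, was at 126 CPM, against 30.7 to 59.8 CPM, and SNAPC1, of the complex that recruits it to small nuclear RNA genes, at 54.7 CPM, against 20.2 to 29.3 CPM.

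Of 35 mitochondrial ribosomal protein genes, 24 were above the range (68.6%) and 2 below, with a median difference of 0.41. MRPL24 was at 112 CPM in siRIPK2_3, against 66.4 to 76.95 CPM. MRPL3 was an exception at 35.7 CPM, against 73.6 to 86.7 CPM, low by more than 2-fold. Of 28 mitochondrial import genes, a list added after values were seen, 18 were above and 0 below. TIMM8A, a chaperone of the intermembrane space, was at 22.2 CPM, against 9.33 to 12.0 CPM. Nuclear-encoded subunits of oxidative phosphorylation had 16 of 44 above (36.4%), and siNC had 18 of 44 above in its own comparison. COX5A, a subunit of cytochrome c oxidase, was at 56.6 CPM in siRIPK2_3, against 102 to 117 CPM. The 13 messengers made in the mitochondrion had 0 above and 2 below the range.

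**Figure D3:**
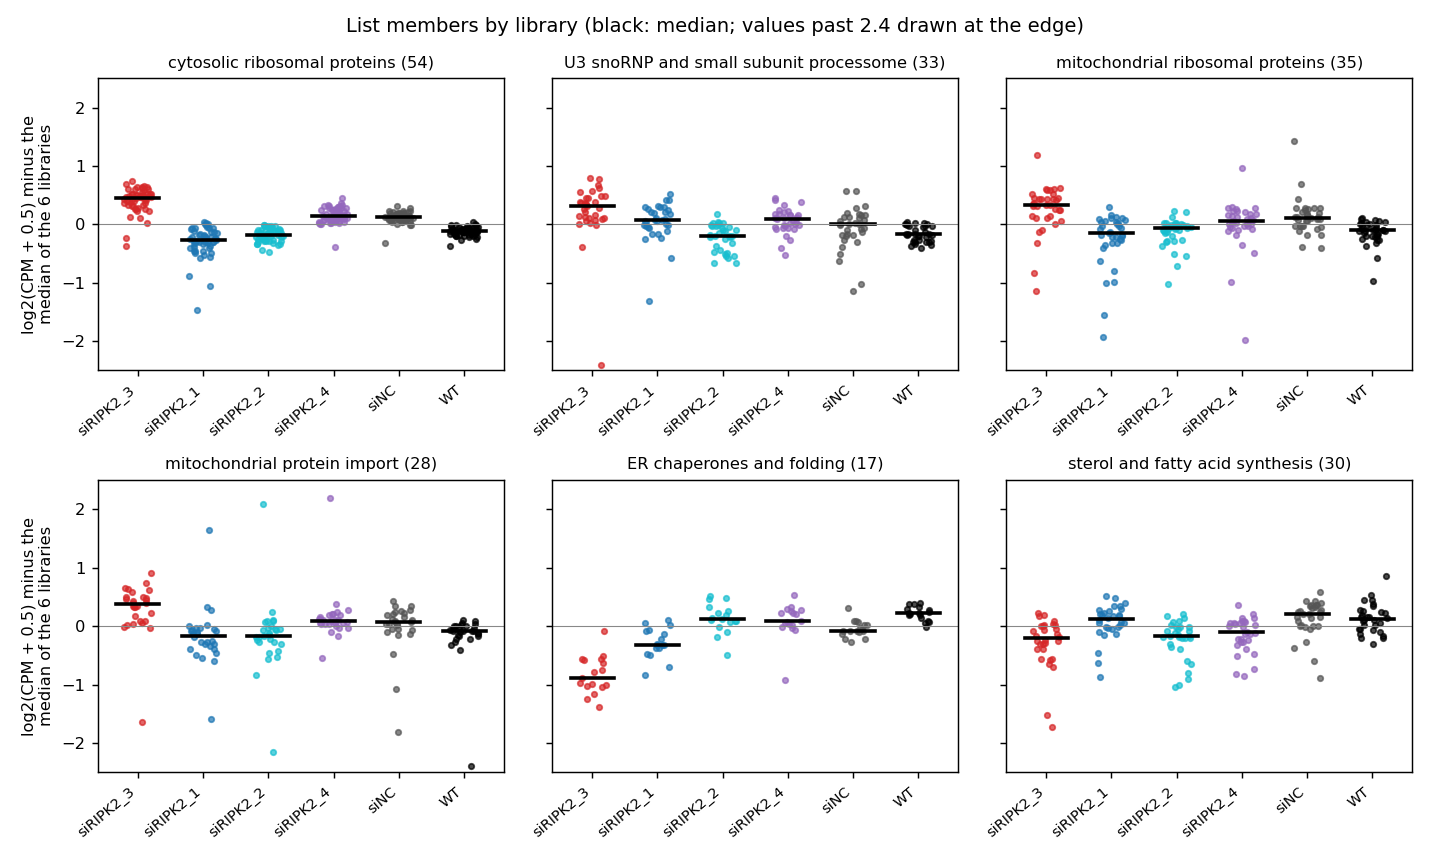
Each point is a list member in 1 library, drawn as log2(CPM + 0.5) minus the median of the 6 libraries, and the black bar is the median over members. Ribosomal proteins, the processome, mitochondrial ribosomal proteins and import genes have their highest bar in siRIPK2_3, and ER chaperones have their lowest there.

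Single genes with gaps of 2-fold above the range included 3 of mitochondria and translation. MRM1, which methylates mitochondrial ribosomal RNA, was at 27.9 CPM in siRIPK2_3, 10.8 CPM in siRIPK2_1, 8.16 CPM in siRIPK2_2, 9.27 CPM in siRIPK2_4, 9.57 CPM in siNC and 8.21 CPM in WT. TWNK, the helicase of mitochondrial DNA, was at 77.9 CPM, against 29.8 to 35.6 CPM, and its overlapping gene MRPL43 was above the range by 0.01. DPH2, which modifies elongation factor 2, was at 73.0 CPM, against 24.5 to 32.6 CPM. The other 5 libraries lay close together for all 3.

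NRG1, neuregulin 1, a ligand of ErbB receptors, was at 80.6 CPM in siRIPK2_3, 32.9 CPM in siRIPK2_1, 22.4 CPM in siRIPK2_2, 30.6 CPM in siRIPK2_4, 32.95 CPM in siNC and 22.7 CPM in WT. AMOTL2, a junction protein and target of YAP, was at 334 CPM, against 85.8 to 166 CPM. CCN1, a secreted YAP target, was at 696 CPM, against 272 to 530.2 CPM, and the YAP and TEAD target list had 8 of 29 above the range (27.6%), against 22.4% of all genes, and 2 below. MYOF, a membrane repair protein of that list, was below by a gap of 0.75. PLPP3, a lipid phosphatase of the cell surface, was at 760.0 CPM, against 237 to 376 CPM. RASSF1, a scaffold of Hippo signalling, was at 94.3 CPM, against 28.5 to 46.4 CPM, and DUSP3, a MAP kinase phosphatase, at 42.7 CPM, against 8.36 to 21.0 CPM. TXNIP, an inhibitor of thioredoxin, was at 46.6 CPM, against 3.80 to 19.9 CPM, the widest range among the others in this group. EN1, a homeobox factor, was at 11.1 CPM, against 2.78 to 4.99 CPM, and PRTG, a cell surface protein of the immunoglobulin family, at 16.6 CPM, against 4.69 to 6.73 CPM. TENT5B, a poly(A) polymerase, and BDNF, a neurotrophin, followed at 11.5 and 53.2 CPM, each just short of 2-fold. The other 5 libraries averaged 3.86 CPM for EN1 and 4.55 CPM for TENT5B. Both genes reached the mean of 5 CPM only through their value in siRIPK2_3.

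A pair of IDs without a symbol had the widest gaps above, and both share exons with other genes. ENSG00000267303 was at 34.97 CPM in siRIPK2_3, against 0 to 1.87 CPM, and ENSG00000255508, which overlaps EEF1G and TUT1, at 53.2 CPM, against 5.30 to 7.75 CPM. Their values are uncertain for that reason. ENSG00000267303 also reached the mean of 5 CPM only through its value in siRIPK2_3.

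EGR1, a transcription factor induced by MAP kinase signalling, was at 27.9 CPM in siRIPK2_3, against 57.3 to 119 CPM, and ETV5, an ETS factor of the same pathway, at 47.3 CPM, against 111 to 175 CPM. Of 29 MAPK and AP-1 response genes, 8 were below (27.6%) and 5 above (17.2%), with a median difference of -0.01. LIMK1, which inactivates the actin-severing protein cofilin, was at 35.5 CPM, against 75.2 to 130.1 CPM. ADAM12, a membrane metalloprotease, was at 73.5 CPM, against 156 to 285 CPM. Its list of proteases and inhibitors had 8 of 23 below (34.8%) and 4 above (17.4%), against 17.4% and 22.4% of all genes. FZD6, a Wnt receptor, was at 55.9 CPM, against 118.01 to 158 CPM. IGFBP5, which binds insulin-like growth factors, was at 2.46 CPM, against 5.77 CPM in siNC and 10.2 to 33.9 CPM in the other 4, and its gap of -1.08 became -1.85 without siNC. CD44, a hyaluronan receptor of glioma cells, was at 224 CPM, against 389 to 556 CPM.

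Tubulin and microtubule genes had 9 of 27 below (33.3%) and 1 above (3.70%), against 17.4% and 22.4% of all genes. TUBA4A was at 86.5 CPM, against 103 to 151 CPM. The library siRIPK2_2 also had 9 of 27 below in its own comparison, with 2 above. ER-to-Golgi transport genes had 9 of 34 below (26.5%) and 2 above (5.88%), with SEC24D, a coat protein, at 78.4 CPM, against 113 to 188 CPM. For these genes siRIPK2_1 had 12 of 34 below and 4 above in its own comparison. Lists near or under the background on both sides included NOD-RIPK2 signalling, with 3 of 23 below and 4 above, and NF-kB genes, with 1 of 24 below and 3 above. Chromatin remodelling had 4 of 37 below and 2 above. The 36 genes of the G2/M phase had 2 below and 0 above, and the CCNB1 value, 100.3 CPM in siRIPK2_3, was close to 102 CPM in siRIPK2_2. Of the 2 members below, CCNB1 had a gap of -0.03, which became -0.73 without siRIPK2_2. In their own comparisons siNC was above in 16 of the 24 NF-kB genes and WT below in 8. For G2/M, siRIPK2_4 was above in 22 and siRIPK2_2 below in 26. For chromatin remodelling, siRIPK2_1 was above in 21 and siNC below in 14. A gene can be lowest or highest in 1 library only, so the counts of siRIPK2_3 in these lists were limited by the other libraries.

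**Figure D4:**
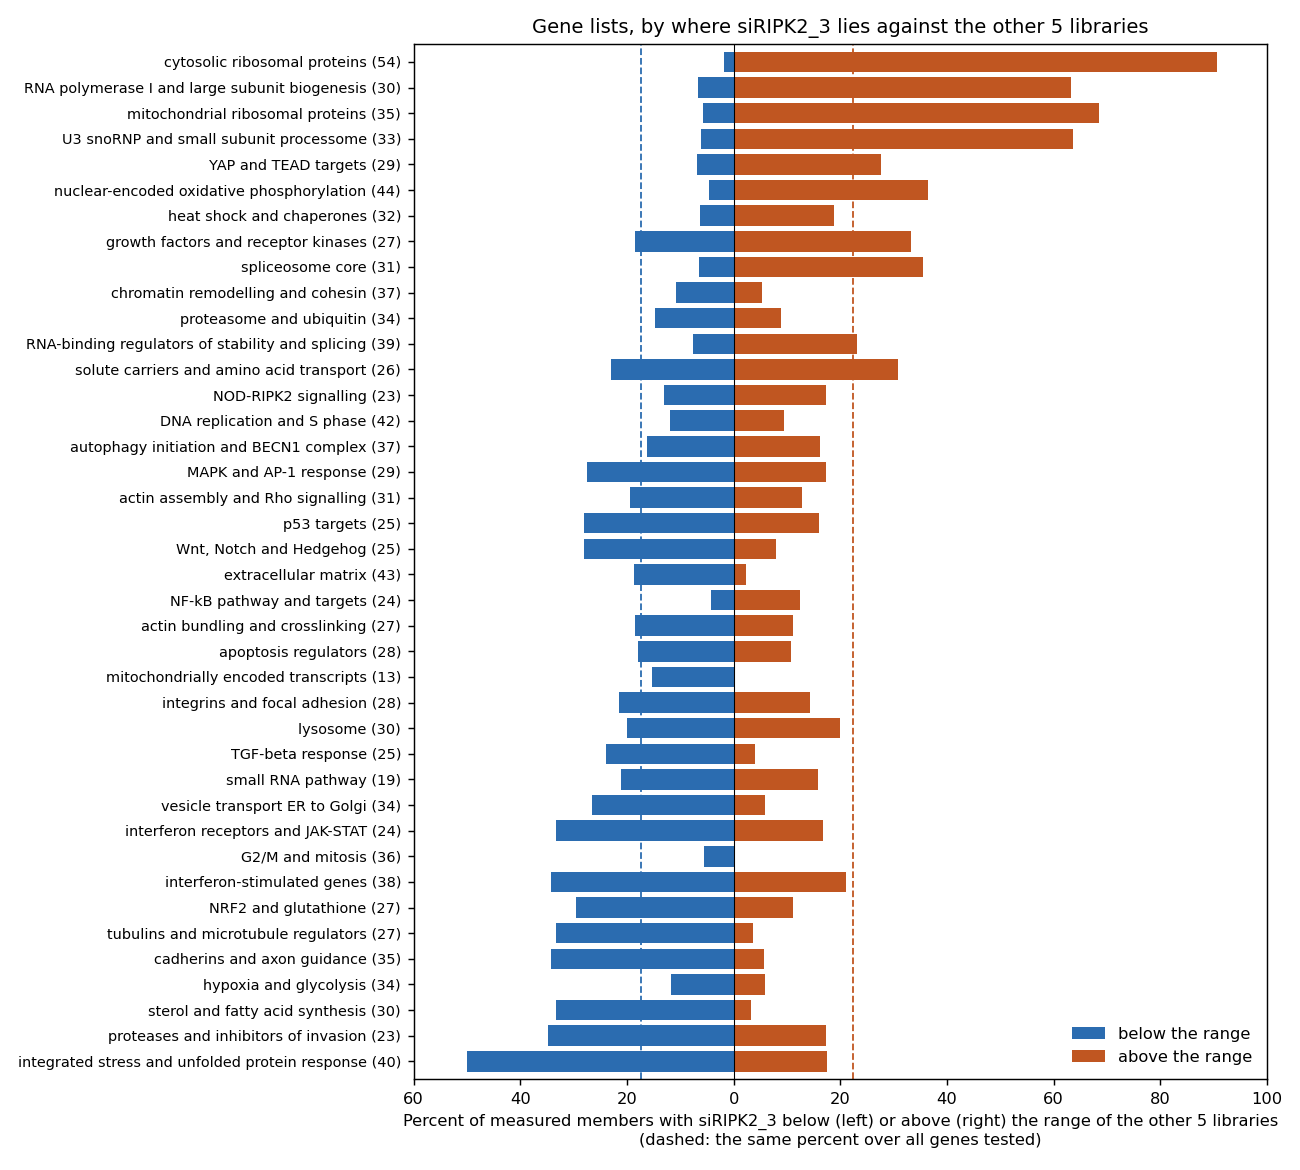
Bars give the percent of each list's measured members, whose number is in brackets, with siRIPK2_3 below (blue, left) or above (orange, right) the range of the other 5 libraries, and dashed lines give the same over all genes, 17.4% and 22.4%. Cytosolic ribosomal proteins reach 90.7% above and the integrated stress and unfolded protein response 50.0% below.

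Transcript length moved with the direction. Among the quintile of genes with the shortest transcripts, of 207 to 2256 nucleotides, 14.2% were below the range and 30.4% above, and among the longest quintile 20.1% were below and 17.7% above. Without the cytosolic and mitochondrial ribosomal protein lists, 28.8% of the shortest quintile were above. The cytosolic ribosomal protein list had a median transcript length of 1917 nucleotides and the mitochondrial one 1620, against 3856 for all genes, and the part of length in those lists was not tested. The genes low by 2-fold had a median length of 4198 nucleotides and a GC content of 45.7%, and the 15 high genes 3519 nucleotides and 56.7%, against 47.8% GC for all genes. Exons overlapped another gene in 27.4% of the low genes, against 31.3% of all genes.

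**Figure D5:**
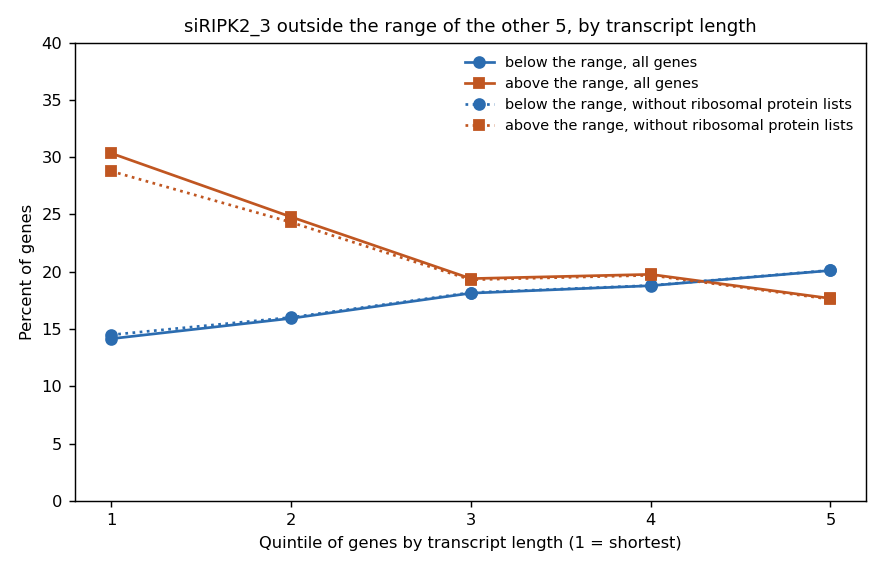
The vertical axis is the percent of genes with siRIPK2_3 below (circles) or above (squares) the range of the other 5 libraries, by quintile of transcript length, for all genes (solid) and without the ribosomal protein lists (dotted). The share above is 30.4% in the shortest quintile and 17.7% in the longest.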

How the data were processed

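The authors deposited 1 table of raw read counts per Ensembl gene ID for the 6 libraries. Messenger RNA was selected by its poly(A) tail and copied from random primers, per the labels' protocols. FastQC, Trimmomatic, HISAT2, bedtools and GRCh38 are named in the submitters' processing notes. Versions, annotation and strandedness were not given in the sources used here, so overlapping genes can share reads.

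Counts were scaled with TMM factors (edgeR 4.0.16, R 4.3.3) from 14306 genes kept by its expression filter (minimum count 10), and given as CPM. DESeq2 1.42.0 gave alternative size factors. Genes with a mean of 5 CPM or more over the 6 libraries, siRIPK2_3 included, were compared by the gap on log2(CPM + 0.5). No test was run, since siRIPK2_3 is 1 library. Positions and exon overlaps come from GENCODE 29, and 20148 of 20263 IDs matched a symbol. Named genes were RIPK2, FSCN1, IMP3, IFNAR1, RBMS3, BECN1, the 15 widest gaps on each side among genes with a symbol and up to 3 per list. Further genes in the text were picked with their values in view. The genes and the 45 lists were chosen with earlier results of these data known, and 5 further lists after the values were seen.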

Additional observations from a re-analysis of the deposited data

How the results depend on the processing

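The 4 counts of genes, the list counts and the named gaps were recomputed under 3 other scalings, 3 filters, 2 pseudocounts, counts thinned to the smallest library, and without each of the other 5 libraries in turn. None of the 143 named genes outside the range changed sign or came inside it under these alternatives. The filters leave a single gene's gap as it was, and a pseudocount keeps the order of the libraries. Leaving out a library can only widen a gap or keep it. For single genes, only the 3 other scalings and the thinned counts could therefore have changed the side of the range. The genes lower by 2-fold numbered 62 with a pseudocount of 2 CPM, and the genes higher by 2-fold 9 at a mean of 20 CPM or more, where 6 interferon-stimulated genes were below. Gaps of 1.5-fold gave 314 lower and 103 higher genes, and gaps of 3-fold 15 and 2. Without 1 of the other libraries, 102 to 138 genes were lower and 16 to 29 higher by 2-fold, 1981 to 2317 were lower and 2505 to 2919 higher at any gap. Removing a library from the range can only raise these counts. Leaving out siRIPK2_3 itself gives no value. No paired analysis was possible because WT and siNC have 1 library each and siRIPK2_3 has no numbered partner. Values far below 5 CPM rest on few counts, such as TRIM59 in siRIPK2_3, at 0.33 CPM from 15 counts.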
